A study of Mus musculus with 3 samples.

Results

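The genes described here are the chemokines and chemokine receptors of a list of 33 genes, 26 ligands and 7 receptors, out of 27,994 named genes in the count table. Members were found by their gene symbol. All but *Cxcl11* matched a row, so that 25 ligands and 7 receptors were described across the 7 clusters of cells that the authors deposited. *Cxcl11* was not analysed here.

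Endothelial cells were sorted from the hearts of adult GFP-transgenic mice, in which cells of all kinds carry GFP, as GFP+CD31+VE-Cad+ cells that lacked PDGFRA, PDGFRB, CD41 and CD45. They were co-aggregated with *Mesp1*(der) PSCs of E11.5 embryos, which are DsRed+PDGFRA+ stromal cells of the aorta-gonad-mesonephros region without endothelial or blood markers, in medium with serum, interleukin, SCF and Flt3L. GFP+CD31+VE-Cad+PDGFRA- cells were sorted again at 24, 48, 72 and 96 h and pooled with fresh cardiac endothelium, and 3 such pools were sequenced as single-cell libraries. The second sort did not gate on CD41 or CD45. Neither the pool nor the time of a cell is known from the material used here, so the 9,562 cells were treated as 1 sample, and fresh cells cannot be told apart from cultured cells.

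Chemokines are small secreted proteins that direct the movement of leukocytes along a gradient, and a few of them are made as membrane proteins that hold cells before they are shed. They act on G protein-coupled receptors, whereas atypical receptors such as ACKR3 take ligands up without G protein signalling. Endothelium presents chemokines to blood cells on its luminal surface, and CXCL12 with its receptor CXCR4 is best known for holding haematopoietic stem cells in their niche.

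A unique molecular identifier (UMI) marks 1 captured messenger RNA molecule at its 3′ end, so that counts needed no correction for transcript length. A level is the sum of a gene's UMIs in a group of cells per 10,000 UMIs of that group. Clusters held 239 to 5,396 cells with median depths of 7,875 UMIs in cluster 1 to 36,065.5 in cluster 5, and the barcodes of the 3 libraries end in suffix 1, 2 or 3. A total of 13 barcodes occurred in more than 1 library, which concerned 26 cells. Endothelial markers (*Cdh5*, *Pecam1* and 7 others) summed to 42.6, 46.2 and 35.0 UMIs per 10,000 in clusters 0, 1 and 2 and to 3.97–6.13 in clusters 3 to 6, although every cell had passed a CD31 and VE-Cad gate. Cluster 0 was arterial endothelial-like (*Gja5*, *Gja4*), cluster 3 germ or pluripotent-like (*Dppa5a*, *Utf1*, *Dppa3*), cluster 4 fibroblast or stromal-like (*Col1a1*, *Col1a2*) and cluster 6 megakaryocyte or platelet-like (*Pf4*, *Ppbp*). Fibroblast or stromal markers summed to 20.8 in cluster 4, which was also the highest cluster for mural (15.2) and epithelial markers (3.68). It may thus hold cells of more than 1 kind. Cluster 5 held macrophage and granulocyte markers side by side and, like clusters 1 and 2, is called by its number. Among the leading genes of cluster 1 were *Il1a*, *Saa3* and *Csf3* and the members *Cxcl1* and *Cxcl10*. The authors clustered the cells on their expression values, so differences between clusters are given as a description, with no test. Intervals are at the 95% level and cover counting error only, and values by library show the spread.

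The ligands that stood out most in cluster 1 lie in a few gene blocks. On chromosome 5 (GRCm38), *Cxcl5*, *Ppbp*, *Pf4*, *Cxcl3*, *Cxcl15*, *Cxcl1* and *Cxcl2* lie in this order between positions 90,759,360 and 90,905,938, and *Cxcl9* and *Cxcl10* between 92,321,347 and 92,348,889. On chromosome 11, *Ccl2*, *Ccl7*, *Ccl11*, *Ccl12*, *Ccl8* and *Ccl1* lie between 82,035,571 and 82,305,690, and *Ccl5*, *Ccl9*, *Ccl6*, *Ccl3* and *Ccl4* between 83,525,778 and 83,664,683. RefSeq promoters (GRCm38.p6) were found for 23 members. In the 250 bases before the start, a match to the NF-kappaB motif on either strand was present in 5 of them (*Ccl9*, *Cxcl1*, *Cxcl2*, *Cxcl3* and *Cxcl10*) and in 4.46% of 27,025 genes with a promoter. The core of the interferon-stimulated response element, GAAANNGAA on either strand, was present in *Ccl3*, *Cxcl9*, *Cxcl10*, *Cxcl14* and *Ccr2* and in 8.18% of all genes, and the AP-1 motif TGANTCA in *Ccl9* and *Cxcl10* and in 7.82%. These motifs were chosen with earlier results known, and a match is a run of letters, not a shown binding site. All 5 genes with an NF-kappaB match had their highest level in cluster 1, where for *Ccl9* the libraries overlapped with cluster 5. *Ccl3*, *Cxcl9*, *Cx3cl1*, *Cxcr4* and *Ackr3* were also highest in cluster 1 and had no NF-kappaB match. *Ccl2*, *Ccl4*, *Ccl5*, *Ccl7* and *Cxcl16*, highest there too, had no promoter to search. The promoters with an NF-kappaB match are printed below 5′ to 3′ on the strand of the gene, and capitals mark the match. They are chr5:90890995-90891244 (plus strand) for *Cxcl1*, chr5:90903649-90903898 (plus) for *Cxcl2*, chr5:90785851-90786100 (plus) for *Cxcl3*, chr5:92348890-92349139 (minus) for *Cxcl10* and chr11:83578637-83578886 (minus) for *Ccl9*.
Cxcl1: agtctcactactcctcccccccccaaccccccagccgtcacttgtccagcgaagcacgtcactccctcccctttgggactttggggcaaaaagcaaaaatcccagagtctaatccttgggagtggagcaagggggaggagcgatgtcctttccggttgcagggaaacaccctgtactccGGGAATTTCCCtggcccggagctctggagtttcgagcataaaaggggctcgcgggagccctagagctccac
Cxcl2: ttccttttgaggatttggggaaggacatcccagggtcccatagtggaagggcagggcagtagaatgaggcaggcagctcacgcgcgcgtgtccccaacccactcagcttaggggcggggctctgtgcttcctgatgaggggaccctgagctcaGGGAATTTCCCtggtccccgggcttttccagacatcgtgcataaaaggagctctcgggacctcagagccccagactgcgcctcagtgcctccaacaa
Cxcl3: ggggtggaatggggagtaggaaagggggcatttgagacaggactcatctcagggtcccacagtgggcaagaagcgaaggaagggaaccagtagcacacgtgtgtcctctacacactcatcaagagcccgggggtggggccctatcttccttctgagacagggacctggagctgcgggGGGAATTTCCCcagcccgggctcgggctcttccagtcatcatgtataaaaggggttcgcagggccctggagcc
Cxcl10: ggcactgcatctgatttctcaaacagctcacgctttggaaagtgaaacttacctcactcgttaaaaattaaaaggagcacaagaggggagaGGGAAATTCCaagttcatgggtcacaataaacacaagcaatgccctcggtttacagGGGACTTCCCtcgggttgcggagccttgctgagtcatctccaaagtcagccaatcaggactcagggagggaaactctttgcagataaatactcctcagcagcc
Ccl9: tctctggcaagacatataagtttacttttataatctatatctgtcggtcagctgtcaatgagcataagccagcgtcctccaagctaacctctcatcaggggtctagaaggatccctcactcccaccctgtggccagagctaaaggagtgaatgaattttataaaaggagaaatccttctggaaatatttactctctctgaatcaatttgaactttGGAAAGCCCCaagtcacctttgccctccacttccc

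*Cxcl1*, *Cxcl2* and *Cxcl3* carried the same run of 11 letters, in which matches on both strands overlap. It began 71, 97 and 73 bases before the start of *Cxcl1*, *Cxcl2* and *Cxcl3*, respectively. *Cxcl10* had 2 separate matches, which began 159 and 103 bases before its start, and the match of *Ccl9* began 35 bases before.

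Chemokine ligand transcripts were concentrated in cluster 1. The 25 ligands together reached 64.6 UMIs per 10,000 there, against 1.27, 0.572, 0.451, 5.96, 5.05 and 0.817 in clusters 0, 2, 3, 4, 5 and 6, respectively. In the libraries with suffix 1, 2 and 3, the sum in cluster 1 was 74.6, 43.3 and 64.9. These values did not overlap with those of any other cluster, of which the highest was 6.68. *Cxcl2* led the ligands of cluster 1 with 28.3% of their UMIs, *Cxcl12* those of clusters 0 and 4, *Ccl25* those of clusters 2 and 3, and *Ccl3* and *Cxcl5* those of clusters 5 and 6. Receptor levels summed to 2.67 in cluster 1 and to 0.118–0.698 in the other clusters.

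Of the ligands, 23 had at least 20 UMIs over all cells and were placed in the cluster of their highest level. Cluster 1 held 13 of them, against 21.6% of the 16,577 genes with as many UMIs. Cluster 4 held 5 (24.1% of all genes), cluster 5 held 3 (9.88%) and cluster 6 held 2 (10.4%), whereas none was highest in cluster 0 (10.9%), 2 (4.04%) or 3 (19.0%). *Ccl11*, a ligand of the eosinophil receptor CCR3, had 5 UMIs in all and *Ccl22*, a ligand of CCR4, had 7, and neither was placed. All 7 receptors were placed, *Cxcr4* and *Ackr3* in cluster 1 and *Ccr1*, *Ccr2*, *Ccr7*, *Cxcr2* and *Cxcr3* in cluster 5.

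**Figure D1:**
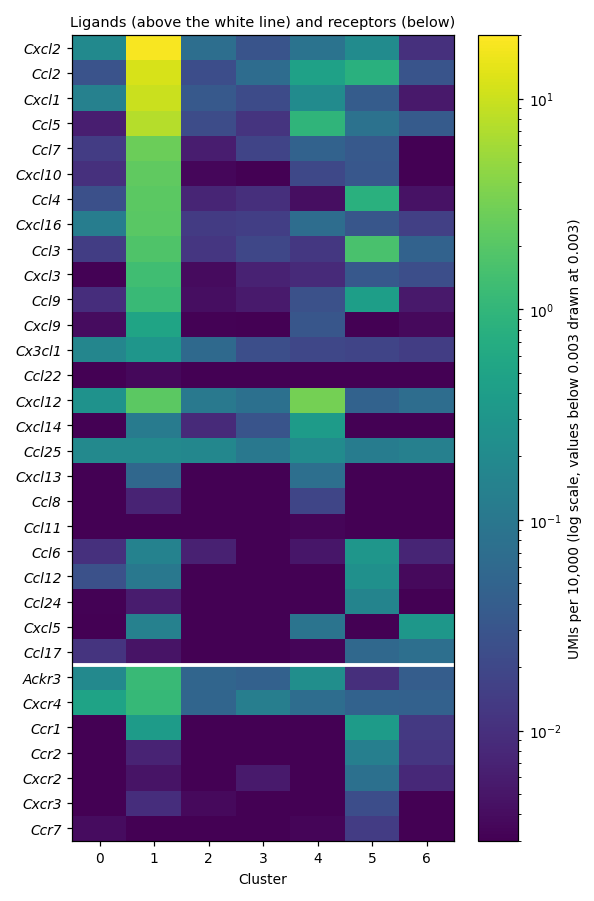
Levels of the 32 matched members in the 7 clusters, as UMIs per 10,000 UMIs of the cluster on a logarithmic colour scale, with ligands above and receptors below the white line and genes ordered by the cluster of their highest level. Cluster 1 was the brightest column for the ligands from *Cxcl2* to *Cx3cl1*, with *Cxcl2* at 18.3 UMIs per 10,000. Levels below 0.003 are drawn at 0.003, and *Ccl11* and *Ccl22* had fewer than 20 UMIs in all.

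The neutrophil-attracting ligands *Cxcl1*, *Cxcl2* and *Cxcl3*, which act on CXCR2, were highest in cluster 1. *Cxcl2* was at 18.4, 9.17 and 24.4 UMIs per 10,000 in libraries 1, 2 and 3 of cluster 1 and at 18.3 over all its cells. In the other clusters *Cxcl2* reached 0.0102 (cluster 6) to 0.212 (cluster 5). *Cxcl1* was at 8.19, 5.28 and 15.5 in the libraries of cluster 1 (9.87 in all) and at 0.00557 to 0.210 elsewhere. For both genes the lowest library of cluster 1 lay above every library of every other cluster. In cluster 0 *Cxcl1* was at 0.0203, 0.449 and 0.00232 in libraries 1, 2 and 3, so that its level of 0.145 there came mostly from library 2. *Cxcl3* was at 2.28, 1.05 and 0.225 in cluster 1, and its level of 1.36 fell to 0.564 without library 1.

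The monocyte-attracting ligands *Ccl2* and *Ccl7*, which act on CCR2, were also highest in cluster 1. *Ccl2* was at 15.5, 6.79 and 9.12 UMIs per 10,000 in the libraries of cluster 1 and at 11.6 over all (95% interval 11.4–11.8). It was next highest in cluster 5 (0.796; 0.984, 0.647 and 0.676 by library) and in cluster 4 (0.468; 0.734, 0.155 and 0.395). *Ccl7* was at 3.40, 2.49 and 1.97 in cluster 1 and at no more than 0.0473 in any other cluster. *Ccl8* and *Ccl12*, which lie in the same block on chromosome 11, were not highest in cluster 1. *Ccl8* had 29 UMIs in all, 22 of them in cluster 4, and 17 of those 22 came from 1 cell. Its level in cluster 4 was 0.0186 and 0.00692 without library 1. *Ccl12* was at 0.330, 0.144 and 0.230 in cluster 5 and at 0.185, 0.0646 and 0.0113 in cluster 1.

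*Cxcl9* and *Cxcl10*, ligands of the T cell receptor CXCR3 that are induced by interferon, were both highest in cluster 1. *Cxcl10* was at 3.03, 3.16 and 0.714 UMIs per 10,000 in its libraries and at 0.00279 to 0.0326 in other clusters. *Cxcl9* was at 0.357, 0.598 and 0.710 there and at 0.00140 to 0.0321 elsewhere. The order of the libraries differed between the 2 genes, with library 3 the lowest for *Cxcl10* and the highest for *Cxcl9*.

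*Cxcl16* and *Cx3cl1*, the ligands made as membrane proteins, were also highest in cluster 1. *Cxcl16*, which binds CXCR6, was at 2.28, 2.25 and 1.79 UMIs per 10,000 in the libraries of cluster 1 and next highest in cluster 0 (0.126; 0.113, 0.102 and 0.160 by library). At an equal depth of 5,000 UMIs per cell, 45.9% of cluster 1 cells had a *Cxcl16* UMI (95% interval 42.3–49.6%), against 5.96% of the cells in cluster 0 and 0.930% and 1.26% in clusters 2 and 3. *Cx3cl1*, the ligand of CX3CR1, was at 0.280, 0.382 and 0.289 in cluster 1, at 0.142, 0.219 and 0.165 in cluster 0 and at 0.0514, 0.0738 and 0.0591 in cluster 2. Libraries of these 3 endothelial clusters did not overlap for *Cx3cl1*, and clusters 3 to 6 lay at 0.0149–0.0252.

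**Figure D2:**
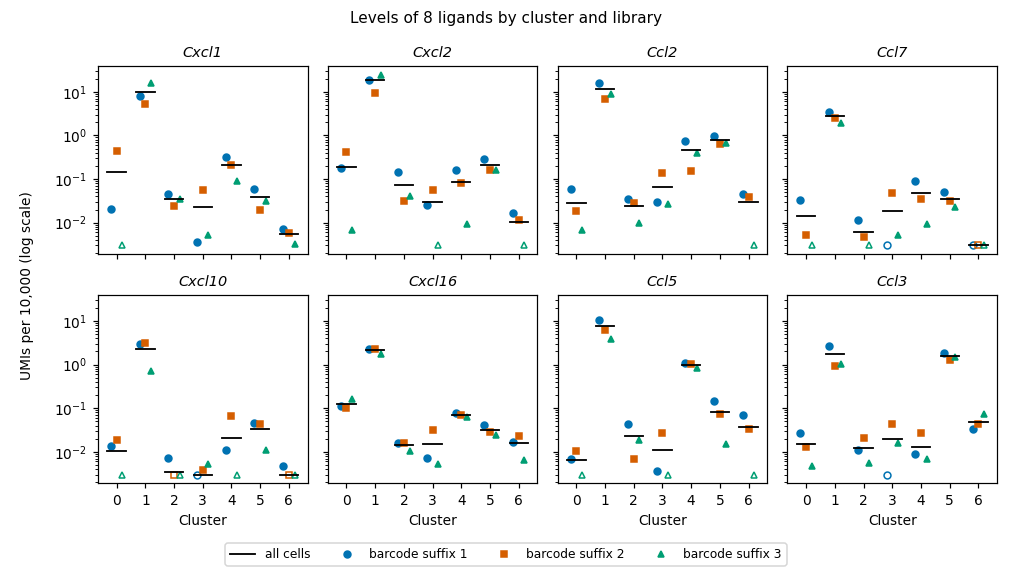
Levels of 8 ligands in UMIs per 10,000 (logarithmic axis) by cluster, with a symbol for each of the 3 libraries and a bar for all cells of the cluster, and open symbols for values below 0.003, drawn at 0.003. Cluster 1 lay highest for each gene over all cells, with *Cxcl2* at 9.17 to 24.4, whereas cluster 5 overlapped with it for *Ccl3* (1.24 to 1.86 in cluster 5).

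Cluster 1 was set against the other endothelial clusters, 0 and 2, as 1 group. A gene was called at a ratio of at least 2 with the same direction in all 3 libraries, and it had to reach 0.01 UMIs per 10,000 over both groups. Of the members, 20 passed this minimum, and a member that passed through its high level in cluster 1 alone had to differ. Of these 20, 19 were called higher in cluster 1 (17.3% of the 11,845 genes tested) and none was called lower (12.8%). *Ccl25* was the 1 member that was not called. The log2 ratios of the 19 ranged from 2.12 for *Cx3cl1* to 9.17 for *Cxcl10* (95% interval 8.80–9.55), with a median of 7.33 over the 20 members and of 0.06 over all genes. *Ccl4*, *Ccl6*, *Ccl7*, *Ccl9*, *Cxcl3*, *Cxcl9*, *Cxcl10*, *Cxcl14* and *Ccr1* lay below 0.01 in clusters 0 and 2 and passed through cluster 1 alone. The calls of these members were thus fixed by the minimum, and their ratios enter the range and the median. *Cxcl12* was 4.18 higher on the log2 scale, *Ackr3* 4.21 and *Cxcr4* 3.59.

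Most of the ligand transcripts of cluster 1 came from few cells. Of its 799 cells, the 40 with the most *Cxcl2* UMIs held 84.0% of all *Cxcl2* UMIs of the cluster, and the top 10 held 47.1%. The corresponding 40 cells held 88.6% for *Cxcl1*, 72.9% for *Ccl2*, 93.4% for *Ccl7* and 96.9% for *Cxcl10*, but 51.2% for *Cxcl12*, 39.5% for *Cxcr4*, 34.9% for *Cxcl16* and 28.8% for *Ackr3*. A single cell of library 3 with 20,743 UMIs had the most UMIs of both *Cxcl1* (1,738) and *Cxcl2* (2,610), which were 8.38% and 12.6% of all its UMIs and 20.9% and 17.0% of those genes' UMIs in the cluster. The 40 top *Cxcl2* cells came from all libraries, with 21, 5 and 14 cells, and 32 of them had a *Cdh5* UMI. UMIs of 7 leukocyte genes (*Ptprc* and others) were found in 15 of these 40 cells and in 163 of the 799, and 9 of the 40 had a *Ptprc* UMI. *Cdh5*, which encodes the endothelial adhesion molecule VE-cadherin, was at 4.89 UMIs per 10,000 in these 40 cells and at 9.94 in the whole cluster.

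**Figure D3:**
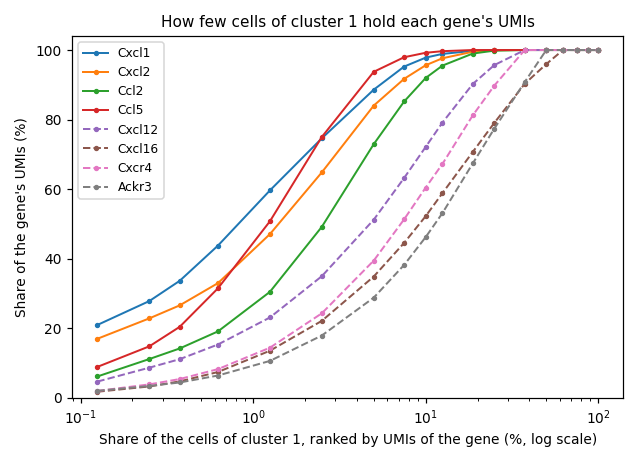
Share of a gene's UMIs in cluster 1 (vertical axis, %) held by the cells with the most UMIs of that gene (horizontal axis, % of the 799 cells, logarithmic axis), with solid lines for *Cxcl1*, *Cxcl2*, *Ccl2* and *Ccl5* and dashed lines for *Cxcl12*, *Cxcl16*, *Cxcr4* and *Ackr3*. At 40 cells (5.01%) the solid lines stood at 72.9–93.7% and the dashed lines at 28.8–51.2%.

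The cells with the most transcripts overlapped to different extents between ligands. Among the top 40 cells of each gene, 27 were shared by *Cxcl1* and *Cxcl2* (67.5%), 23 by *Ccl2* and *Ccl7* (57.5%) and 25 by *Ccl5* and *Ccl3* (62.5%), each pair lying in 1 gene block. Between genes of different blocks the overlap was 21 cells for *Ccl5* and *Cxcl16*, 14 for *Ccl3* and *Cxcl16*, 13 for *Cxcl2* and *Ccl2*, 9 for *Cxcl2* and *Ccl5*, and 7 for *Cxcl2* and *Cxcl10*. *Cxcl12* shared 1 of 40 with *Cxcl2* and none with *Ccl2*, *Ccl7* or *Cxcl10*. The top 40 were ranked by UMIs without regard to depth. Their median depth was 17,281.5, 14,227 and 19,453.5 UMIs for *Ccl5*, *Ccl3* and *Cxcl16*. It was 8,151.5 for *Cxcl12*, against 7,875 in the whole cluster. Leukocyte UMIs were found in 37, 35 and 30 of the 40 cells for *Ccl5*, *Ccl3* and *Cxcl16*, and in 7 for *Cxcl12*. At 5,000 UMIs per cell, *Cxcl2* was found in 70.7% of 133 *Cxcl1*-positive cells of cluster 1 and in 11.8% of 612 *Cxcl1*-negative cells. *Cxcl12*, in contrast, was found in 21.1% of *Cxcl2*-positive and 30.1% of *Cxcl2*-negative cells, and *Cxcr4* in 16.9% and 32.0%. At least 3 different ligands were found in 33.0% of cluster 1 cells (up to 13 in a cell), whereas clusters 5 and 4 had 18.8% and 3.91% of such cells and the other clusters 0.465–1.26%.

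Part of cluster 1's ligand level came from cells with leukocyte transcripts. UMIs of *Ptprc*, *C1qa*, *C1qb*, *C1qc*, *S100a8*, *S100a9* or *Mpo* were found in 163 cells of cluster 1 (median depth 9,433 UMIs), and the other 636 cells had none (7,532.5 UMIs). Which cells these were was not tested further. *Cdh5* was at 6.72 UMIs per 10,000 in the cells with leukocyte UMIs and at 11.1 in those without. Macrophage markers summed to 5.68 in cluster 1 as a whole, against 19.2 in cluster 5 and 0.115 in cluster 2.

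*Ccl3*, *Ccl4*, *Ccl5* and *Ccl9*, ligands that recruit monocytes and T cells, were far higher in the cells with leukocyte UMIs. *Ccl5* was at 38.4, 19.0 and 13.6 UMIs per 10,000 in the libraries of these cells and at 0.734, 0.415 and 0.831 in the cells without. *Ccl4* was at 8.13 against 0.0243, *Ccl3* at 6.42 against 0.0615 and *Ccl9* at 4.22 against 0.0566. The 2 sets of cells did not overlap by library for these genes. Over all cells of cluster 1, the levels of *Ccl4*, *Ccl5* and *Ccl9* were 2.17, 7.53 and 1.16 and fell to 1.33, 4.80 and 0.518 without library 1. Of the 40 cells with the most *Ccl5* UMIs, 37 had leukocyte UMIs and 28 a *Ptprc* UMI, which encodes the leukocyte antigen CD45. *Cxcl3* behaved likewise at 4.73 against 0.141, and so did the receptor *Ccr1* at 1.36 against 0.0162.

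*Cxcl1*, *Cxcl2*, *Ccl2*, *Ccl7*, *Cxcl9* and *Cxcl10* differed by less than 2-fold between the 2 sets over all their cells. By library, *Cxcl1* was at 6.51, 1.62 and 13.6 in the libraries of the cells with leukocyte UMIs and at 8.79, 6.95 and 16.1 in those without. *Cxcl2* was at 21.8 against 17.0, *Ccl2* at 13.5 against 10.9, *Ccl7* at 2.69 against 2.77, *Cxcl9* at 0.431 against 0.555 and *Cxcl10* at 2.65 against 2.21. By library, *Cxcl2* was at 29.4, 5.25 and 24.7 against 14.5, 10.95 and 24.3, with opposite directions in libraries 1 and 2. *Ccl7* was at 2.72, 3.98 and 1.41 against 3.65, 1.81 and 2.14, and its direction also differed between libraries. *Cxcl9* was at 0.203, 1.07 and 0.211 by library in the cells with leukocyte UMIs and at 0.412, 0.384 and 0.860 in those without, which is over 2-fold in each library but in opposite directions. The cells were also divided by *Ptprc* alone, which was decided after the data had been seen and gave 48 cells with it (median depth 17,281.5 UMIs) and 751 without (7,683). *Cxcl9* was then at 0.0195 in the cells with *Ptprc* and at 0.592 in those without, *Cxcl1* at 3.32 and 10.8, and *Cxcl10* at 5.03 and 1.95. *Cxcl12* (1.42 against 2.40), *Cxcr4* (0.682 against 1.23) and *Ackr3* (0.722 against 1.36) lay lower in the cells with leukocyte UMIs. In all, 11 of 23 members with at least 20 UMIs in the cluster were at least 2-fold higher in the cells with leukocyte UMIs (5.18% of the 11,282 genes with as many UMIs) and none in the cells without (4.85%). By *Ptprc* alone, 13 were higher with it (7.39%) and 7 without (22.6%). When the cells with leukocyte UMIs were left out, which was decided after the data had been seen, the summed ligand level of cluster 1 was 49.9 and 9 ligands had their highest level there, with *Ccl3*, *Ccl4* and *Ccl9* highest in cluster 5 and *Ccl5* in cluster 4. The number of members higher than in clusters 0 and 2 was then 13. Shares over all genes were not computed for this setting.

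**Figure D4:**
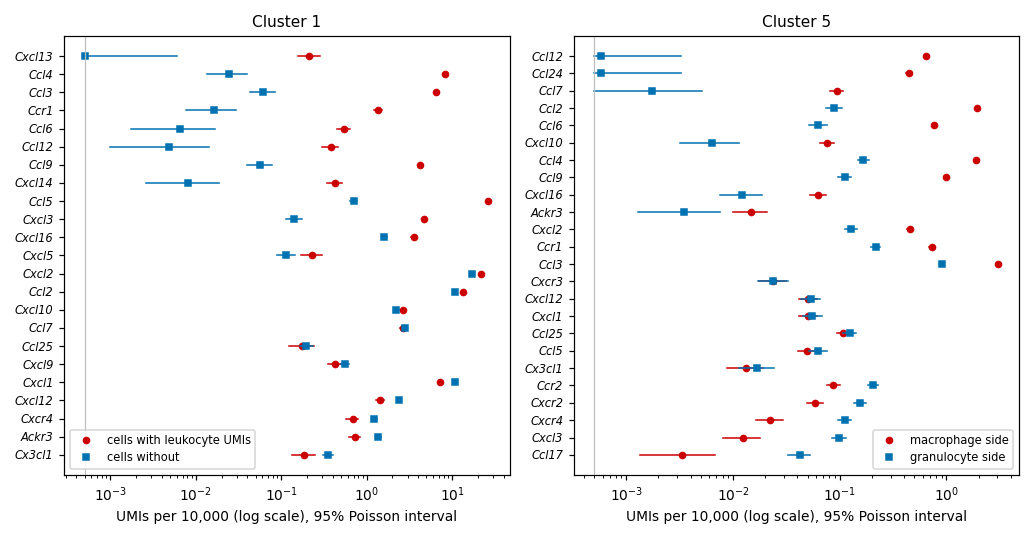
Levels in UMIs per 10,000 (logarithmic axis) with 95% Poisson intervals for the members with at least 20 UMIs. On the left are cells of cluster 1 with (163 cells) and without (636 cells) leukocyte UMIs, and on the right cells of cluster 5 with macrophage (596 cells) or granulocyte (374 cells) markers. *Ccl5* was at 26.5 against 0.700 on the left, and *Ccl12* at 0.646 against 0.000584 on the right. Values below 0.0005 are drawn at 0.0005.

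*Cxcl12*, the ligand of CXCR4 and ACKR3, was highest in the stromal-like cluster 4 and the endothelial cluster 1. It was at 3.24, 2.64 and 3.58 UMIs per 10,000 in libraries 1, 2 and 3 of cluster 4 and at 1.37, 1.71 and 3.57 in those of cluster 1, so that these 2 clusters overlapped. In cluster 0 it was at 0.338, 0.209 and 0.253, in cluster 2 at 0.104 over all and in the rest at 0.0485–0.0771. At 5,000 UMIs per cell, 43.6% of cluster 4 cells (39.2–48.0%), 28.1% of cluster 1 cells (24.9–31.4%) and 8.86% of cluster 0 cells (6.89–11.2%) had a *Cxcl12* UMI, compared with 5.44% in cluster 3.

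The receptor *Cxcr4* was highest in cluster 1, followed by cluster 0. It was at 1.06, 1.16 and 1.06 UMIs per 10,000 in the libraries of cluster 1 and at 0.579, 0.386 and 0.508 in those of cluster 0, with no overlap. Cluster 3 followed at 0.144, 0.106 and 0.139, and clusters 2, 4, 5 and 6 lay at 0.0455–0.0710. At equal depth, 28.6% of cluster 1 cells and 20.2% of cluster 0 cells had a *Cxcr4* UMI, against 3.07% in cluster 2 and 2.81% in cluster 5. *Ackr3* was at 1.23, 0.964 and 1.29 in cluster 1, at 0.248, 0.203 and 0.238 in cluster 4 and at 0.225, 0.180 and 0.167 in cluster 0, of which the latter 2 overlapped. Cluster 5 was lowest for *Ackr3* at 0.00999. *Ackr3* was found more often in cells with *Cxcr4* than in cells without. At equal depth it was present in 45.1% of *Cxcr4*-positive and 34.6% of *Cxcr4*-negative cells of cluster 1, and these shares were 21.2% and 7.29% for cluster 0 and 13.3% and 2.59% for cluster 2.

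**Figure D5:**
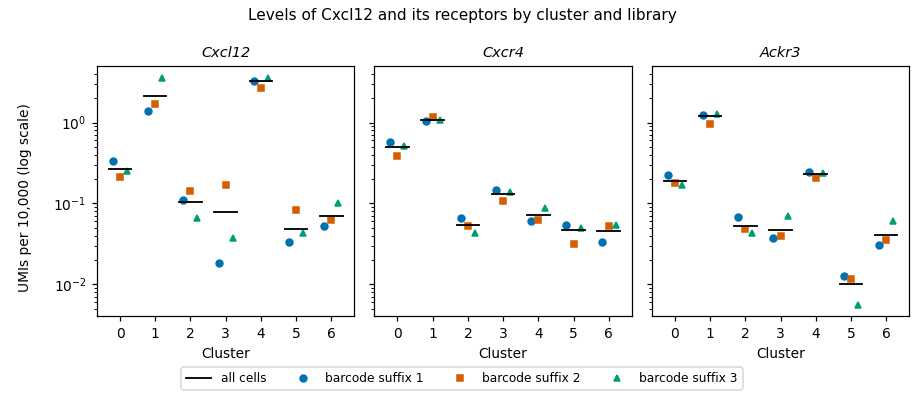
Levels of *Cxcl12*, *Cxcr4* and *Ackr3* in UMIs per 10,000 (logarithmic axis) by cluster, with a symbol for each library and a bar for all cells of the cluster. *Cxcl12* was highest in clusters 4 (3.22) and 1 (2.14), and both receptors in cluster 1 (1.08 for *Cxcr4* and 1.19 for *Ackr3*).

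The arterial endothelial-like cluster 0 was compared with cluster 2. Of 11 members that passed the minimum, 5 were called higher in cluster 0 (10.3% of 11,632 genes tested) and none was called lower (4.07%). These were *Cxcr4* (log2 ratio 3.22, 95% interval 3.06–3.37), *Cxcl16* (3.17), *Ackr3* (1.85), *Cx3cl1* (1.50) and *Cxcl12* (1.37). The other 21 matched members did not reach the minimum level over the 2 clusters.

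The stromal-like cluster 4 was compared with the endothelial clusters 0, 1 and 2 together, which cluster 1 dominates for most ligands. Of 21 members that passed, 4 were called higher (13.7% of 12,165 genes tested) and 10 lower (8.84%). A member that passed through 1 side alone again had to differ in level, but a call also needed the ratio and all 3 libraries. The 4 were *Cxcl14* (log2 ratio 4.77), *Cxcl12* (3.85), *Cxcl5* (3.28) and *Ccl5* (1.22), and *Ccl4* had the lowest ratio at -4.85. *Cxcl5* lay below 0.01 UMIs per 10,000 in the endothelial clusters, and *Ccl4*, *Cxcl3* and *Ccr1* lay below it in cluster 4. These members passed through 1 side alone, as did *Ccl6* (0.00507 in cluster 4, 0.0144 in the endothelial clusters), which was not called. The direction of *Ccl6* differed between libraries. *Cxcl14*, a ligand whose receptor is unsettled, was at 0.328, 0.334 and 0.446 UMIs per 10,000 in the libraries of cluster 4, and *Ccl5* at 1.06, 1.01 and 0.819. Few cells carried these 2 genes, with a UMI in 2.73% and 2.54% of cluster 4 cells at equal depth. *Cxcl5* in cluster 4 was at 0.206, 0.0275 and 0.00231 and came mostly from library 1. *Cxcl13*, the ligand of the B cell receptor CXCR5, had its highest level in cluster 4 as well (0.0847, 0.0138 and 0.106), whereas all 47 *Cxcl13* UMIs of cluster 1 came from 1 cell of library 2, which had leukocyte UMIs.

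Cells of cluster 4 were divided by a *Pdgfra* UMI at 5,000 UMIs per cell, since the sort had gated PDGFRA+ cells out. *Cxcl12* was at 3.69 UMIs per 10,000 in 127 cells with *Pdgfra* (4.25, 2.65 and 4.10 by library) and at 3.08 in 385 cells without (2.98, 2.63 and 3.46). *Ccl5* was at 0.0183 in the cells with *Pdgfra* and 1.25 in those without, and *Cxcl14* at 0.0367 and 0.458. When *Pdgfra* was read from all UMIs, which put 254 cells on its side, *Ccl5* was at 0.526 and 1.46 and *Cxcl12* at 4.09 and 2.21. Of 18 members with at least 20 UMIs, 1 was at least 2-fold higher with *Pdgfra* (0.930% of the 12,688 genes with as many UMIs) and 11 without (7.53%). At full depth these numbers were 2 (1.96% of all genes) and 6 (7.27%).

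Cluster 5 carried ligands and receptors of myeloid cells. Against clusters 0, 1 and 2 together, 25 members passed, 10 were called higher (10.5% of 12,151 genes tested) and 13 lower (20.5%). The higher members were *Ccl24* (log2 ratio 7.25), *Ccr2* (6.41), *Ccl17*, *Ccl12* (4.67), *Cxcr2* (4.65), *Ccl6* (4.43), *Ccr1* (4.13), *Ccl3* (3.95), *Ccl4* (2.73) and *Ccl9* (2.67). The lower members included *Cxcl1*, *Cxcl12*, *Cxcl16*, *Cxcr4* and *Ackr3*, with log2 ratios of -3.82, -2.20, -2.04, -1.58 and -3.62. Cluster 1 dominates the endothelial side for most ligands. *Cxcl1* and *Cxcl16* were at 0.0393 and 0.0321 UMIs per 10,000 in cluster 5, no lower than in cluster 2 (0.0353 and 0.01395). *Cxcl12*, *Cxcr4* and *Ackr3* were at 0.0485, 0.04715 and 0.00999 in cluster 5, against 0.104, 0.0533 and 0.0530 in cluster 2. *Ccl24*, *Ccr2*, *Ccl17*, *Cxcr2* and *Ccl12* lay below 0.01 UMIs per 10,000 in the endothelial clusters, passed the minimum through cluster 5 alone and so had to differ. In turn, the lower members *Ackr3*, *Cxcl9* and *Cxcl14* lay below 0.01 in cluster 5 and passed through the endothelial clusters alone.

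*Ccl3* was at 1.86, 1.24 and 1.50 UMIs per 10,000 in the libraries of cluster 5 and at 2.62, 0.910 and 1.06 in those of cluster 1. The clusters thus overlapped, but 30.1% of cluster 5 cells had a *Ccl3* UMI at equal depth against 6.58% of cluster 1 cells. Without library 1 the level in cluster 1 was 0.996. *Ccl6* (0.314, 0.289 and 0.321), a mouse ligand of CCR1, and *Ccl24* (0.188, 0.153 and 0.133), a ligand of the eosinophil receptor CCR3, varied little between the libraries of cluster 5.

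The receptors with their highest level in cluster 5 act on leukocytes. *Ccr1*, which binds CCL3 and CCL5, was at 0.419, 0.298 and 0.385 UMIs per 10,000, and overlapped with cluster 1 at 0.480, 0.415 and 0.188. *Ccr2*, the receptor of inflammatory monocytes, was at 0.154, 0.0975 and 0.130 and at no more than 0.0121 elsewhere. *Cxcr2*, the neutrophil receptor for CXCL1 and CXCL2, was at 0.0799, 0.0753 and 0.0769 and at no more than 0.00836 elsewhere. *Cxcr3* (0.0322, 0.0138 and 0.0219) and *Ccr7* (0.0211, 0.00484 and 0.0135), receptors of T cells and of migrating dendritic cells, were at 148 and 89 UMIs in cluster 5, and 33 of the *Ccr7* UMIs came from 1 cell.

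Cluster 5 was divided at equal depth into cells with at least 2 UMIs of the macrophage genes *C1qa*, *C1qb* and *C1qc* (596 cells), of the granulocyte genes *Mpo*, *Elane*, *Prtn3* and *Ctsg* (374), of both lists (120) or of neither (478). On the macrophage side *Ccl2* was at 1.95 UMIs per 10,000 (2.39, 1.39 and 1.78 by library), against 0.0888 on the granulocyte side (0.160, 0.0476 and 0.0289). *Ccl12* and *Ccl24* were at 0.646 and 0.444 on the macrophage side and each had 1 UMI on the granulocyte side. *Ccl3* (3.03 against 0.905), *Ccl4* (1.87 against 0.166), *Ccl6* (0.771 against 0.0631), *Ccl9* (0.989 against 0.111) and *Ccr1* (0.728 against 0.217) had the same direction. *Cxcr2* (0.0589 against 0.155), *Ccr2* (0.0874 against 0.204) and *Cxcr4* (0.0223 against 0.111) lay higher on the granulocyte side, in every library. *Cxcl3* also lay higher there (0.0123 against 0.0987), but on the granulocyte side it was at 0.226, 0.00317 and 0.00152 by library. *Ccl17* and *Ccr7* were highest in the cells with neither marker list, at 0.161 and 0.0433. Of 24 members with at least 20 UMIs, 13 were at least 2-fold higher on the macrophage side (10.0% of the 12,500 genes with as many UMIs) and 5 on the granulocyte side (6.68%). At equal depth *Cxcr2* was found in 2 of 86 *Ccr2*-positive cells of cluster 5 (2.33%) and in 63 of 1,482 *Ccr2*-negative cells (4.25%).

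The megakaryocyte or platelet-like cluster 6 was low in most members. Against cluster 5, 26 members passed, 2 were called higher (8.22% of 11,899 genes tested) and 18 lower (12.9%). Most of the lower members passed the minimum through cluster 5 alone and so had to differ in level. These were *Ccr7* and *Cxcr3*, with no UMI in cluster 6, and others below 0.01 there. The latter were *Ccl24*, *Ccl7*, *Ccl12*, *Ccl4*, *Ccl9*, *Ccl6*, *Cxcl1*, *Cxcl10* and *Cxcr2*. *Cxcl5*, another CXCR2 ligand, was called higher with a log2 ratio of 7.21, and *Ackr3* with 2.03. Both lay below 0.01 UMIs per 10,000 in cluster 5, passed the minimum through cluster 6 alone and so had to differ. *Cxcl5* was at 0.309, 0.343 and 0.296 UMIs per 10,000 in the libraries of cluster 6, whereas its level of 0.145 in cluster 1 came from library 1 (0.308, 0.00539 and 0.00376). At equal depth 11.3% of cluster 6 cells had a *Cxcl5* UMI, compared with 0.537% in cluster 1 and 0.418% in cluster 3. *Ppbp*, the neighbouring gene of *Cxcl5* on chromosome 5, was found in 77.1% of *Cxcl5*-positive and 39.8% of *Cxcl5*-negative cells of cluster 6. *Ccl17*, a ligand of the T cell receptor CCR4, was at 0.0731, 0.0857 and 0.0668 in cluster 6 and at 0.0620, 0.0588 and 0.0569 in cluster 5.

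*Ccl25*, known as the thymic and gut ligand of CCR9, was the most even member. Its level ranged from 0.101 UMIs per 10,000 in cluster 3 to 0.211 in cluster 4, and the libraries of cluster 4 (0.187, 0.251 and 0.210) overlapped with those of cluster 1 (0.167, 0.259 and 0.180). Shares of positive cells at equal depth ran from 3.88% in cluster 6 to 10.1% in cluster 0.

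Other genes of the family were read from separate lists, and those that reached 1 UMI per 10,000 in any cluster are named. Of the other ligands these were *Pf4* at 167 and *Ppbp* at 7.90 in cluster 6, both platelet chemokines and markers of that cluster. Of the other receptors it was *Cx3cr1*, the fractalkine receptor, at 2.48, 2.69 and 2.53 in the libraries of cluster 5 and at no more than 0.0334 elsewhere. Of the signalling and processing genes, *Gnai2* and *Gnai3*, which encode inhibitory G protein subunits, reached 14.0 in cluster 1 and 1.49 in cluster 4. *Adam10*, which encodes a protease that sheds CX3CL1 and CXCL16, was at 1.67 in cluster 0 and 1.35 in cluster 1, whose libraries overlapped. *Arrb2*, a beta-arrestin gene, was at 1.07 in cluster 6. Of the regulators of G protein signalling, *Rgs16* was highest in cluster 1 (1.17) and *Rgs2* in cluster 0 (3.84). *Ccl1*, *Ccl26* and *Ccr1l1* had no UMI in the 252,339,042 of all cells, and *Ccr12* was not analysed here.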

How the data were processed

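The authors processed the reads of 3 pools with Cell Ranger 3.1.0 on mm10 and joined the libraries with batch-effect removal, per the paper's methods, and Seurat 3.1.5 is named in the submitters' processing notes. The deposited counts are UMIs per gene and cell, and a second deposited table gives natural log values of these counts, scaled to 10,000 UMIs in each cell with 1 added. The third deposited table gives UMAP coordinates, a score with no unit that was not used, and the cluster number. The methods state singlets with at least 5,000 UMIs, yet 90 of the 9,562 deposited cells lay below. No doublet caller was run here, and an alternative left out the 1% of cells with the most UMIs in each library.

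Identifiers were named from GENCODE M21, and counts of equal names were summed. Levels, exact Poisson and Clopper–Pearson intervals and conditional binomial intervals of ratios were computed with scipy 1.17.1, pandas 2.3.3 and numpy 2.4.6 under Python 3.11.15 and drawn with matplotlib 3.10.9. Equal depth means 5,000 UMIs drawn per cell without replacement (seed 1). The comparison of groups was tested on simulated counts. Barcode suffixes are tied to no pool, so there was no test, no P value is given, and the spread over the 3 libraries stood in for that of replicates. Each suffix held 2,097 to 3,958 cells and 72,496,908 to 92,498,954 UMIs.

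The members, marker lists, motifs and splits were chosen with earlier results of these data known. All members are named, and of the other family lists each gene that reached 1 UMI per 10,000 in any cluster. For a count of 0, a floor of 3 UMIs was taken, which in cluster 0 is 0.00238 UMIs per 10,000. The exact Poisson interval of such a count reaches higher, to 0.00293 in cluster 0. Promoters are those of RefSeq. Alternatives used the mean of cells, equal depth, other minimum levels, the deposited normalized values and libraries left out in turn.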

Additional observations from a re-analysis of the deposited data

How the results depend on the processing

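The limits are the 3 libraries of unknown pool, the depth of cluster 1 (median 7,875 UMIs) and the low counts of several members, and the cause of the shifts below was not tested unless stated. For the placements and comparisons between clusters, shares over all genes were not computed under these settings. Their counts therefore show only how the numbers shift. Leaving out a library gave 3–5 ligands with their highest level in cluster 4 and 1–2 members lower in cluster 0 than in cluster 2. With the mean of the cells, the summed ligand level was 0.844, 6.82 and 0.939 in clusters 3, 4 and 6, the summed receptor level was 0.832, 0.162 and 0.816 in clusters 0, 2 and 5, and 1 member was higher in cluster 6 than in cluster 5. At equal depth, 1 ligand was highest in cluster 0 and 2 in cluster 4, the summed ligand level of cluster 6 was 0.945, the summed receptor level was 0.831, 0.164, 0.273 and 0.864 in clusters 0, 2, 4 and 5, and 2 members were higher in cluster 4 than in clusters 0, 1 and 2. Without the 1% of cells with the most UMIs, 1 member was higher in cluster 6 than in cluster 5. A minimum level of 0.1, under which fewer genes were tested, called 12 members higher in cluster 1 than in clusters 0 and 2. It called 2 higher and 5 lower in cluster 4 than in clusters 0, 1 and 2, 4 higher and 7 lower in cluster 5, 0 higher and 10 lower in cluster 6 than in cluster 5, and 1 higher in cluster 0 than in cluster 2. With no minimum, 1 member was lower in cluster 1 than in clusters 0 and 2, and 8 were higher and 2 lower in cluster 0 than in cluster 2. Chosen after the data were seen, leaving out the cells of cluster 1 with leukocyte UMIs placed 6 ligands in cluster 5, and the log2 ratio of *Ccl6* in cluster 1 against clusters 0 and 2 turned to -0.14. With *Pdgfra* read at full depth, 2 members were higher with it and 6 without. Dividing cluster 1 by *Ptprc* alone, also chosen later, left 7 members higher in the cells without. Without library 1, the highest levels of *Ccl8*, *Cxcl3*, *Ccl9*, *Ccl3*, *Ccl4* and *Ccl5* moved by 2.69, 2.40, 2.24, 1.75, 1.64 and 1.57 times. Of the 224 levels of single members by cluster, 70 moved by more than the spread of the libraries at equal depth, 61 with the mean of the cells and 11 without the cells with leukocyte UMIs. No paired analysis was run, since no comparison rests on a test, and each call already needed the same direction within all 3 libraries.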
